A study of Mus musculus with 12 samples.

Results

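Wt1, Tcf21, Upk3b, Upk1b, Lrrn4 and Msln are genes of the epicardium, the cell layer that covers the heart, and of the mesothelium, the related lining of the body cavities. These 6 genes were chosen by name from the 26190 genes of the expression table, and all 6 were found. RNA-seq was done on 12 libraries, 3 replicates for each of 4 groups. For the embryonic groups, atria and ventricles were dissected from hearts of wild-type C57BL/6 mouse embryos at E11.5 (E11.5H). For the others, heart organoids (HOs) were divided after 13 days of culture into an atrium-like and a ventricle-like part. HOs are beating structures grown from embryoid bodies of wild-type mouse embryonic stem cells on a gel of laminin and entactin with FGF4, with BMP4, BIO (a GSK3 inhibitor) and LIF added later in the culture. The labels give C57BL/6 as the strain of all libraries, whereas the methods describe stem cell lines from C57BL/6 and from C57BL/6 × JF1 hybrids, and which line gave which library was not stated in the sources used here. The study describes the HO replicates as biological. Whether hearts were pooled in an embryonic library was not stated, so p-values measure the spread between these libraries.

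The epicardium arises from the proepicardium, a cluster of mesothelial cells that migrates onto the naked myocardium. Some epicardial cells then lose their epithelial character and enter the heart wall, where they give rise to fibroblasts and mural cells of the coronary vessels. Wt1 encodes a zinc finger transcription factor of the epicardium, kidney and gonads, and Tcf21 a basic helix-loop-helix factor of epicardial and fibroblast progenitors. Upk3b and Upk1b encode uroplakins, membrane proteins best known from the urothelium, the lining of the urinary tract, and also made by mesothelium. Lrrn4 encodes a leucine-rich repeat membrane protein, and Msln encodes mesothelin, a surface protein anchored in the membrane by a lipid tail.

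In the coordinates of the table (GRCm38), Wt1 lay on the plus strand of chromosome 2 from 105126529 to 105173614, and Lrrn4 on the minus strand of the same chromosome from 132868516 to 132880862. Tcf21 lay on the minus strand of chromosome 10 from 22817276 to 22820143, Upk3b on the plus strand of chromosome 5 from 136038496 to 136044993, Upk1b on the minus strand of chromosome 16 from 38773184 to 38800203, and Msln on the minus strand of chromosome 17 from 25748613 to 25754378. None of the 6 overlapped another gene of the table. In the GENCODE M21 annotation Tcf21 overlaps the antisense gene Gm10824, and the use of strand in counting was not given in the sources used here, so reads of the pair cannot be told apart. Promoter sequences from RefSeq (GRCm38.p6) were at hand for 3 of the 6 genes. All 3 are shown. Each runs 5′ to 3′ on the strand of its gene over 200 bases, from 250 to 51 bases before the annotated start.
Lrrn4 (chr2:132880913-132881112, minus strand): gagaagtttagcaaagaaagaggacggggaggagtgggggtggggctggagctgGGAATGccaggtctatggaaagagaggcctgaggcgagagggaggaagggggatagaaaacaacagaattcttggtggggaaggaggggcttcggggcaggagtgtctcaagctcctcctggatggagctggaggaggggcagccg
Upk3b (chr5:136038246-136038445, plus strand): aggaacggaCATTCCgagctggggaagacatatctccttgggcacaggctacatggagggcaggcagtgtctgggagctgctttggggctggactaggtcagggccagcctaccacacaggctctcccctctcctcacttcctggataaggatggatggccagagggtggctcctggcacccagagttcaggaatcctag
Tcf21 (chr10:22820194-22820393, minus strand): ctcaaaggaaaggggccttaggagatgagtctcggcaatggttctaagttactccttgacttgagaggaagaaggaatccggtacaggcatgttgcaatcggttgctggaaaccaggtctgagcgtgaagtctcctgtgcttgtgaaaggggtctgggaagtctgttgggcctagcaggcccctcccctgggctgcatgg
The capitals mark the letters GGAATG, the core motif of TEAD factors, read on either strand. It occurred once in the Lrrn4 window on the gene's strand and once in the Upk3b window on the opposite strand, where it reads CATTCC. It was not in the Tcf21 window. Of 27025 promoter windows of this length, 10.6% held it. The E-box CANNTG, held by 58.9% of windows, the GATA motif AGATAA, held by 8.71%, and the WT1 motif GCGTGGG, held by 3.20%, were searched on both strands and were in none of the 3 windows. No motif overlapped another. Whether any of these motifs has a part in the levels of the genes was not tested.

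The first comparison asked whether these genes differ between the chambers of the embryonic heart. All 6 had a higher mean in atria, and for all but Msln every atrial library lay above every ventricular one. Levels are given as FPKM, fragments per kilobase of transcript scaled to library size, as deposited, with replicates in the order 1, 2 and 3.

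Wt1 had 5.88, 6.77 and 5.75 FPKM in atria and 3.58, 3.84 and 3.91 FPKM in ventricles. Its log2 fold change between atria and ventricles was 0.63 (standard error, SE, 0.14, adjusted p = 0.0146 by edgeR). Tcf21 had 75.8, 64.3 and 57.1 FPKM in atria and 31.6, 32.3 and 34.3 FPKM in ventricles, a log2 fold change of 0.94 (SE 0.12, adjusted p = 5.48e-04 by edgeR). Both genes were higher in atria in every library, by less than the log2 fold change of 1 used here as a threshold.

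The uroplakin genes showed the same order. Upk3b, the most abundant of the 6 genes in both embryonic chambers by FPKM, had 137, 115 and 136 FPKM in atria and 74.2, 74.6 and 68.9 FPKM in ventricles, a log2 fold change of 0.77 (SE 0.085, adjusted p = 2.56e-04 by edgeR). Upk1b had 43.2, 33.2 and 34.3 FPKM in atria and 17.95, 15.2 and 12.6 FPKM in ventricles, a log2 fold change of 1.21 (SE 0.14, adjusted p = 3.95e-04 by edgeR). The lowest atrial library of each gene exceeded its highest ventricular library.

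Lrrn4 had 25.8, 35.1 and 35.7 FPKM in atria and 15.8, 16.0 and 13.9 FPKM in ventricles, a log2 fold change of 1.01 (SE 0.12, adjusted p = 3.40e-04 by edgeR). Msln was low in every embryonic library, at 0.704, 1.15 and 1.07 FPKM in atria and 0.403, 0.114 and 1.13 FPKM in ventricles. The chambers overlapped for Msln, which rested on 8 to 84 fragments per library (log2 fold change 0.74, SE 0.72, adjusted p = 0.577 by edgeR).

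A gene was called when its Benjamini-Hochberg adjusted p over all genes tested was under 0.05 and its absolute log2 fold change was over 1. By this rule 2 of the 6 genes, Upk1b and Lrrn4, were called higher in atria, beside 2.92% of all 14536 genes tested. Without overlap of the chambers, 5 of the 6 genes were higher in atria, beside 23.7% of all genes tested. The median log2 fold change of the 6 genes was 0.85, that of all genes 0.014. The call of Lrrn4 was lost when atria replicate 2, atria replicate 3 or ventricles replicate 3 was left out, with log2 fold changes of 0.95, 0.92 and 0.97. In bulk samples such as these, fewer cells of a type and less RNA per cell cannot be told apart.

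**Figure D1:**
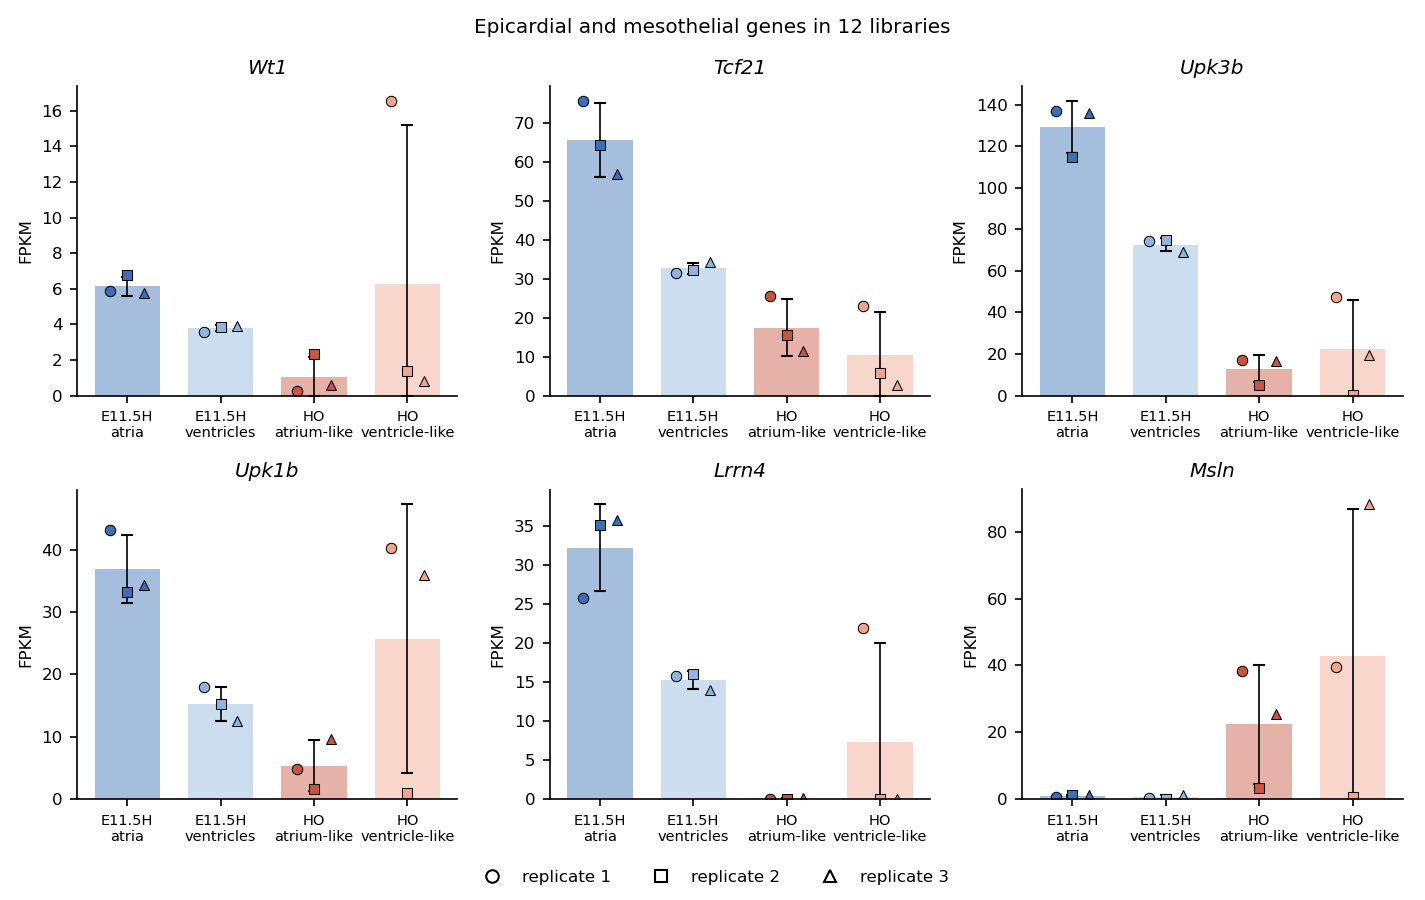
FPKM of the 6 genes in each library (points, shaped by replicate), with the group mean (bars) and SD (error bars, cut at 0), for atria and ventricles of E11.5H and the 2 HO parts. In E11.5H the replicates lie close together, with atria above ventricles for all but Msln. In HOs, ventricle-like replicate 1 stands far above the other libraries for Wt1 and Lrrn4.

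Other genes of the epicardium and mesothelium were taken from a list of 16, of which 15 were in the table and tested. Of these 15, 3 were called higher in atria of E11.5H and none lower, beside 2.92% of all genes tested called higher. Aldh1a2, the retinoic acid synthesizing enzyme of the epicardium, had a log2 fold change of 1.67 (SE 0.16, adjusted p = 1.01e-04 by edgeR). Sema3d, a secreted guidance factor of the proepicardium, had one of 1.26 (SE 0.12, adjusted p = 9.18e-05 by edgeR). Bnc2, a zinc finger gene, had one of 1.89 (SE 0.51, adjusted p = 0.0342 by edgeR), at a mean of 0.391 FPKM in atria. The median of the 15 was 0.50, and 13 were positive. Tbx18, a T-box factor of the proepicardium, had a log2 fold change of 0.76 (SE 0.10, adjusted p = 8.97e-04 by edgeR), close to that of Wt1 and under the fold threshold. Of 10 nephric and gonadal genes, which mark other tissues that use Wt1, Pax8, Lhx1 and Nr5a1 had no fragment in any atrial library, and the summed level of the list was 63.7 to 72.0 CPM (counts scaled to library size) in atria and 3.21 to 7.02 CPM in ventricles. Most of it was Osr1, a factor of intermediate and lateral mesoderm, with 23.0 to 25.9 FPKM in atria and 0.135 to 0.465 FPKM in ventricles, whereas no other gene of the list was above 1.51 FPKM in atria. The part of the list in the chamber difference of Wt1 was not tested.

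In HOs the 6 genes gave no common chamber pattern, and the ranges of the atrium-like and ventricle-like libraries overlapped for each of them. Ventricle-like replicate 1 was high for most of the genes and ventricle-like replicate 2 low.

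Wt1 had 0.226, 2.31 and 0.586 FPKM in the atrium-like parts and 16.6, 1.39 and 0.828 FPKM in the ventricle-like parts. Ventricle-like replicate 1 alone reached the level of the embryonic heart, and exceeded it. Tcf21 had 25.5, 15.6 and 11.4 FPKM in the atrium-like and 23.0, 5.67 and 2.66 FPKM in the ventricle-like parts. Of the 6 genes it was the only one whose highest HO library was atrium-like.

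Upk3b had 17.0, 5.22 and 16.8 FPKM in the atrium-like and 47.2, 0.135 and 19.7 FPKM in the ventricle-like parts. Upk1b had 4.90, 1.56 and 9.65 FPKM in the atrium-like and 40.3, 0.986 and 36.1 FPKM in the ventricle-like parts. Both uroplakin genes were highest in ventricle-like replicate 1, next highest in ventricle-like replicate 3 and lowest in ventricle-like replicate 2, where Upk3b rested on 9 fragments.

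Lrrn4 had 0.0302, 0 and 0.133 FPKM in the atrium-like and 21.9, 0 and 0.0178 FPKM in the ventricle-like parts, which were 3, 0, 15, 2494, 0 and 2 fragments. A count of 0 allows up to 0.103 CPM in atrium-like replicate 2 and 0.108 CPM in ventricle-like replicate 2, from 3 counts and for counting error only. Msln had 38.4, 3.23 and 25.4 FPKM in the atrium-like and 39.4, 0.650 and 88.3 FPKM in the ventricle-like parts. Its highest library was ventricle-like replicate 3, and within each part replicate 2 was the lowest.

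Between the HO parts none of the 5 genes tested was called. The log2 fold change of atrium-like against ventricle-like parts was −2.56 for Wt1 (SE 1.38), 0.95 for Tcf21 (0.86), −0.56 for Upk3b (1.497), −2.06 for Upk1b (1.29) and −0.65 for Msln (1.52), with edgeR adjusted p of 0.750, 0.790, 0.925, 0.750 and 0.915. Lrrn4, with 1 library above 15 fragments, did not pass the filter on low counts. No gene of the 15703 tested was called by edgeR in this comparison (0.0%), 889 had an unadjusted p under 0.05, none of them one of the 6, and DESeq2 called 59. The groups did not overlap for 13.1% of all genes tested. Without ventricle-like replicate 1 the log2 fold change of Wt1 was −0.0011 and that of Upk3b 0.58, and without ventricle-like replicate 3 that of Msln was 0.41. With a replicate block, Upk3b (0.79) and Msln (0.29) also turned positive, as they did under some other settings, and whether equal replicate numbers mark parts of the same HOs was not stated in the sources used here.

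**Figure D2:**
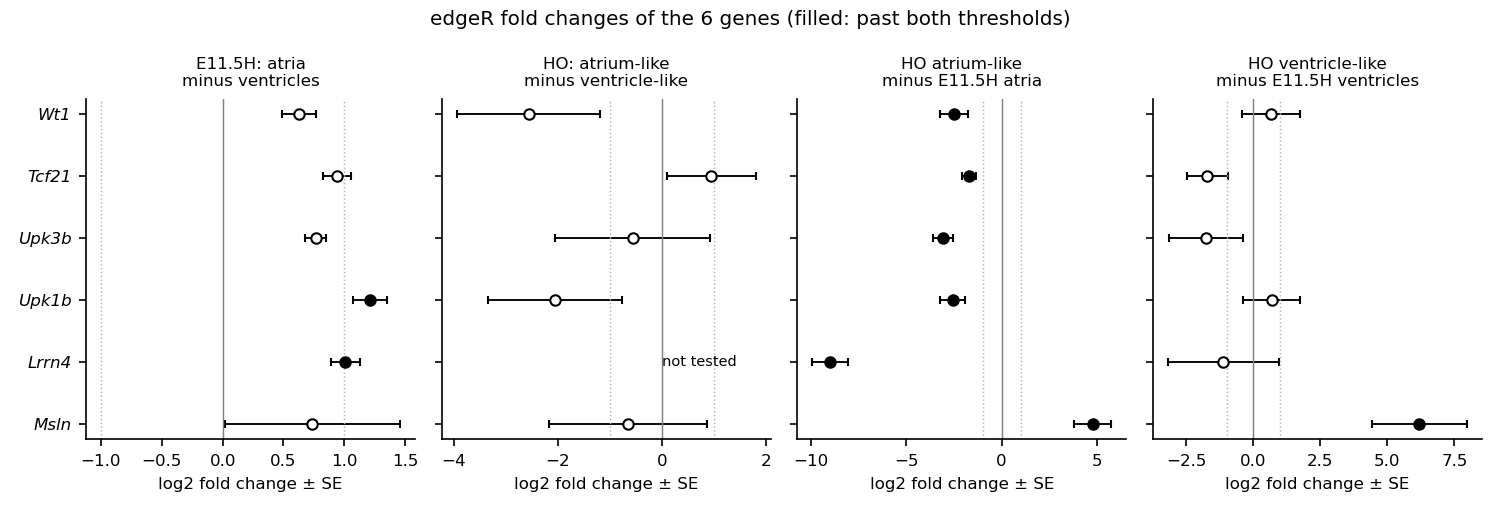
Log2 fold changes with standard errors of the 6 genes from edgeR (x axes, which differ in range between the panels) in 4 comparisons, with filled points for calls and dotted lines at the fold threshold. Upk1b and Lrrn4 are called between embryonic chambers, none between the HO parts, all 6 between atrium-like parts and atria (where Wt1, Tcf21, Upk3b and Upk1b turn positive under scaling to pan-cardiomyocyte genes), and Msln alone between ventricle-like parts and ventricles.

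Whether the chamber difference differed between HOs and E11.5H was tested as an interaction over all 12 libraries. None of the 6 genes was called, beside 0.152% of the 16494 genes tested. The largest difference was that of Lrrn4, at −7.89 (SE 2.85, adjusted p = 0.352 by edgeR), and it became 1.66 without ventricle-like replicate 1. Upk1b had −3.29 (SE 1.38, adjusted p = 0.404 by edgeR) and Wt1 −3.16 (SE 1.45, adjusted p = 0.431 by edgeR). At an unadjusted p under 0.05 there were 2 of the 6 genes, Upk1b and Lrrn4, beside 11.7% of all genes tested.

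The next comparison set each HO part against the chamber it is named for. In atrium-like parts 5 of the 6 genes were called lower than in atria, of which all but Lrrn4 turned positive when libraries were scaled to an equal mean of 16 pan-cardiomyocyte genes, and Msln was called higher under either scaling. That scaling moved the median over all genes from 0.062 to 3.82 on the log2 scale, and Wt1 (0.93), Tcf21 (2.39), Upk3b (0.88) and Upk1b (1.17) stayed below that median. Every atrium-like library lay outside the range of the 3 atrial libraries for every gene. Lrrn4 fell furthest, with a log2 fold change of −9.00 (SE 0.93, adjusted p = 0.00266 by edgeR), from a mean of 32.2 ± 5.58 FPKM (SD, n = 3) to 0.0543 ± 0.0695 FPKM (SD, n = 3). The 3 atrium-like libraries held 18 fragments of it in all.

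Of the transcription factor genes, Wt1 fell by 2.48 on the log2 scale (SE 0.74, adjusted p = 0.0462 by edgeR) and Tcf21 by 1.70 (SE 0.38, adjusted p = 0.0188 by edgeR), each relative to atria. Tcf21 kept the most of its atrial level among the 5 genes that fell. Upk3b fell by 3.09 (SE 0.53, adjusted p = 0.00908 by edgeR) and Upk1b by 2.57 (SE 0.65, adjusted p = 0.0277 by edgeR). Msln rose by 4.79 on the log2 scale (SE 0.97, adjusted p = 0.0147 by edgeR), from 0.974 ± 0.237 FPKM (SD, n = 3) in atria to 22.4 ± 17.8 FPKM (SD, n = 3) in atrium-like parts.

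Of all 15418 genes tested between atrium-like parts and atria, 8.81% were called lower and 16.0% higher, and 54.4% did not overlap. The median log2 fold change of the 6 genes was −2.53. When any 1 of the atrial libraries was left out, Upk3b and Lrrn4 kept their calls and the other 4 genes lost theirs. Without atrium-like replicate 1 the call of Upk1b was lost, and without replicate 3 those of Wt1 and Tcf21.

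In ventricle-like parts the comparison with ventricles gave 1 call, Msln, higher with a log2 fold change of 6.19 (SE 1.78, adjusted p = 0.0442 by edgeR). Its groups overlapped, since ventricle-like replicate 2 lay within the range of the ventricular libraries, and of the 6 fits that left out 1 library only that without ventricle-like replicate 2 kept the call (adjusted p = 0.00661 by edgeR). Without ventricle-like replicate 1 or 3 the adjusted p was 0.0871 and 0.0595 by edgeR, and without ventricular replicates 1 to 3 it was 0.155, 0.146 and 0.108. The call was also lost with limma on log2 FPKM (adjusted p = 0.104 and 0.0808 at a pseudocount of 1 and 0.1). Of all 15094 genes tested, 11.6% were called higher and 7.35% lower. Tcf21 had a log2 fold change of −1.73 (SE 0.76, adjusted p = 0.137 by edgeR) and Upk3b of −1.77 (SE 1.37, adjusted p = 0.362 by edgeR). Every ventricle-like library was below every ventricular library for these 2 genes, beside 50.8% of all genes without overlap in either direction, though both values turned positive (1.08 and 0.76) under scaling to pan-cardiomyocyte genes, which moved the median of all genes to 2.84. Wt1, Upk1b and Lrrn4 had log2 fold changes of 0.66, 0.68 and −1.12 (standard errors 1.09, 1.06 and 2.06), with edgeR adjusted p of 0.675, 0.654 and 0.706.

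These values depended on ventricle-like replicate 1. Without it 3 genes (Wt1, Tcf21 and Lrrn4) were called lower than in ventricles, beside 5.97% of the 15472 genes tested in that fit. Replicate 1 had been singled out with results of these data known and was the highest ventricle-like library for these 3 genes. Leaving it out therefore had to lower their values, and the adjusted p of this fit are a description only. Wt1 fell by 1.90 on the log2 scale (SE 0.35, adjusted p = 0.0259 by edgeR), Tcf21 had a log2 fold change of −3.11 (SE 0.36, adjusted p = 0.0101 by edgeR) and Lrrn4 of −10.68 (SE 0.64, adjusted p = 0.00475 by edgeR). The direction of Wt1 was thereby reversed. For Lrrn4 ventricle-like replicates 2 and 3 held 2 fragments together, and the mean of the ventricles, 60.4 CPM, was 1672 times their pooled level, with a 95% exact Poisson interval of 463 to 13810 that covers counting error only. Upk1b had a log2 fold change of 0.22 without replicate 1, and it was called higher, at 1.26 (SE 0.17, adjusted p = 0.00626 by edgeR), without replicate 2.

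**Figure D3:**
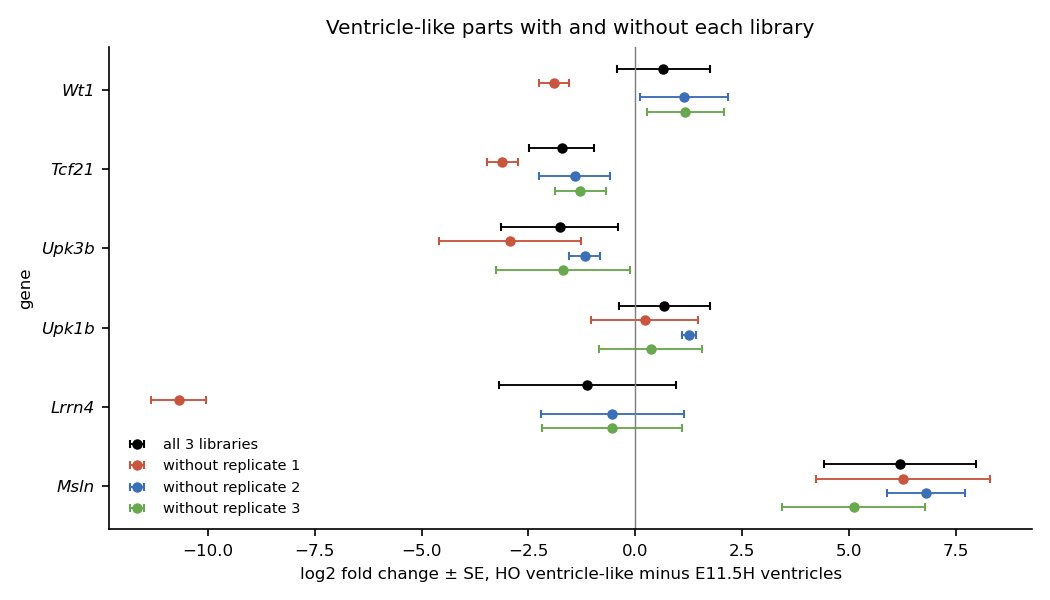
Log2 fold changes with standard errors (x axis) between ventricle-like parts of HOs and ventricles of E11.5H for the 6 genes, with all 3 ventricle-like libraries (black) and without each in turn (colours). Without replicate 1 the value of Wt1 turns from 0.66 to −1.90, and that of Lrrn4 goes from −1.12 to −10.68.

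Ventricle-like replicate 1 was set against the other 5 HO libraries as a description, since 1 library allows no test. The library was singled out with results of these data known. The shares of all genes given beside its counts are therefore no test of it. It was the highest of the 6 HO libraries for Wt1, Upk3b, Upk1b and Lrrn4, the second for Tcf21 and the third for Msln. Of the 16113 genes with at least 1 CPM in an HO library, 12.4% were highest in this library. It held more of the summed CPM than the other 5 libraries together for 2 of the 6 genes, Wt1 and Lrrn4, beside 1.05% of those 16113 genes. Its depth of 28158300 fragments lay within the range of all libraries, 23971258 to 30540993.

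Wt1 had 75.5% of its summed HO signal in this library, 7.20 times the CPM of the next library, atrium-like replicate 2. Lrrn4 had 99.2%, 158 times the next. For Upk3b it was 43.9% and 2.37 times the next, and for Upk1b 42.6% and 1.10 times the next, so Upk1b was nearly as high in ventricle-like replicate 3. The nephric and gonadal list had its highest summed level in the same library, at 100.4 CPM, against 5.17 to 30.3 CPM in the other 5. Within it Osr1 had 34.8 FPKM and Amhr2, a hormone receptor gene, 6.26 FPKM in this library, whereas Pax2, Pax8, Nphs1 and Nr5a1 were at 0. Osr1 and Amhr2 were named after their values were seen, and the part of this list in the level of Wt1 was not tested. Wt1os, an antisense transcript that starts next to Wt1 on the other strand without overlapping it, had 29 fragments here, 1 in ventricle-like replicate 3 and none in the other 4 HO libraries.

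Relative to the ventricles of E11.5H, the FPKM of this library was 4.39 times the ventricular mean for Wt1, 2.64 times for Upk1b, 1.44 times for Lrrn4, 0.703 times for Tcf21, 0.651 times for Upk3b and 72.0 times for Msln. For Wt1, Upk1b, Lrrn4 and Msln it lay above all 3 ventricular libraries, and for Tcf21 and Upk3b below all 3. Ventricle-like replicate 2 lay below the ventricular libraries for all but Msln, and ventricle-like replicate 3 lay below them for Wt1, Tcf21, Upk3b and Lrrn4. Like replicate 1, ventricle-like replicate 3 lay above all ventricular libraries for Upk1b and Msln, at 36.1 and 88.3 FPKM.

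The other epicardial and mesothelial genes did not all follow. Of the 15, 8 were highest in ventricle-like replicate 1, and no other HO library was the highest for more than 2. Bnc1, a basonuclin zinc finger gene of mesothelium, had 4.57 FPKM there and 0 to 0.369 FPKM in the other 5 libraries, and Aldh1a2 had 25.2 FPKM against 0.354 to 5.26 FPKM. Efemp1, a matrix protein gene, had 10.97 FPKM against 0.240 to 4.20 FPKM. These 3 genes also lay above the ventricular mean in this library, at 1.12, 1.49 and 1.78 times. Tbx18 had 3.02 FPKM there and 0.120 to 0.621 FPKM in the others, yet only 0.177 times the ventricular mean. Gpm6a, a membrane glycoprotein gene, had 65.1% of its summed CPM in ventricle-like replicate 2, and Calb2, the calcium-binding calretinin, 77.8%.

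**Figure D4:**
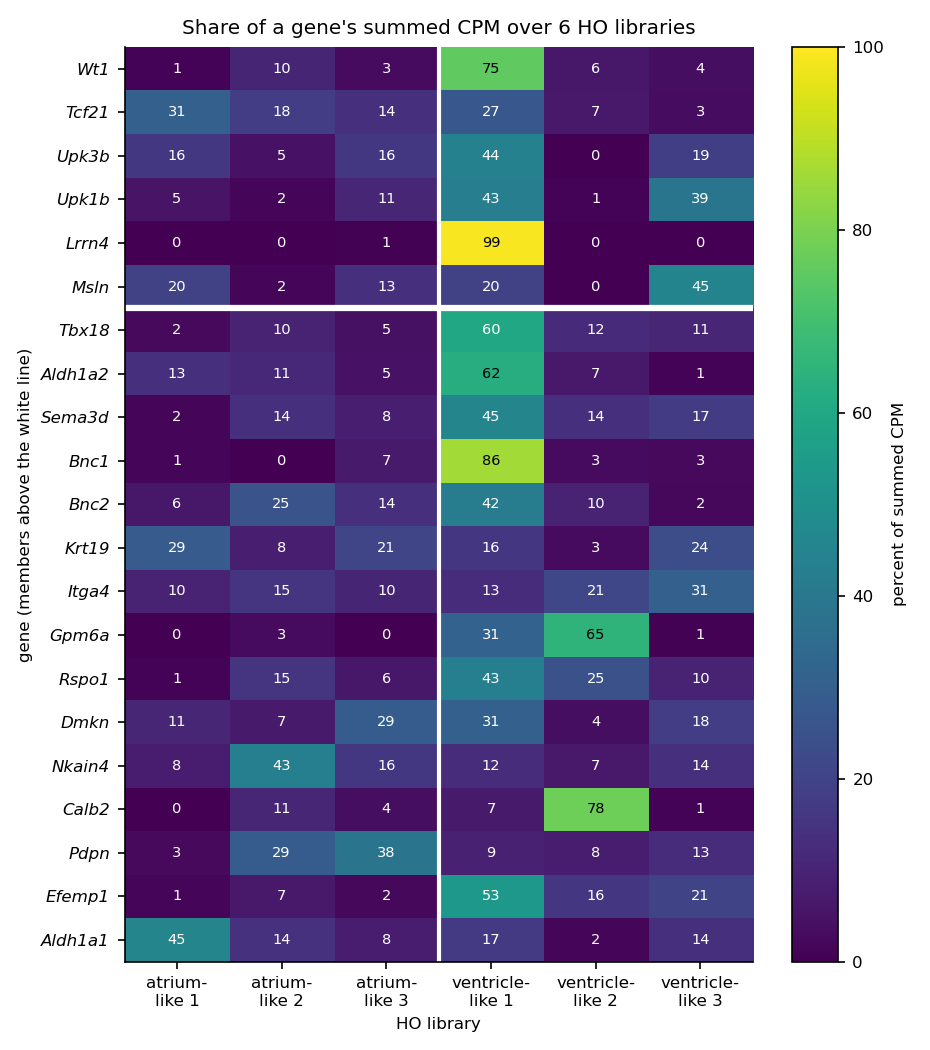
Share of the summed CPM of the 6 HO libraries held by each library (columns, percent as colour and number) for the 6 genes and 15 further epicardial and mesothelial genes (rows). Ventricle-like replicate 1 holds 99% for Lrrn4, 86% for Bnc1 and 75% for Wt1, whereas Msln and Krt19 spread over several libraries.

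Against the embryonic chambers the list of 15 split. In atrium-like parts 8 were called lower than in atria, among them Tbx18 at −6.64 (SE 0.48, adjusted p = 0.00132 by edgeR), Bnc1 at −5.27 (SE 1.27, adjusted p = 0.0242 by edgeR) and Aldh1a2 at −3.65 (SE 0.45, adjusted p = 0.00388 by edgeR) on the log2 scale. The other 5 were Itga4, Sema3d, Rspo1, Efemp1 and Nkain4. The 4 called higher were Krt19, a keratin, at 3.79 (SE 0.55, adjusted p = 0.00578 by edgeR), Dmkn, Pdpn and Aldh1a1. Krt19 and Pdpn also occur in many other epithelia. Of all genes tested in this comparison, 8.81% were called lower and 16.0% higher. The median of the 15 was −3.29. In ventricle-like parts 3 were called lower than in ventricles (Tbx18, Nkain4 and Itga4) and 3 higher (Krt19, Dmkn and Pdpn), with a median of −0.087. Of all genes tested there, 7.35% were called lower and 11.6% higher. The genes of this list were not examined under scaling to pan-cardiomyocyte genes.

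The proportions of the genes to each other were taken within each library as ratios of FPKM, with no test. The FPKM of Lrrn4 was 3.56 to 6.21 times that of Wt1 in the 6 embryonic libraries, 1.32 times in ventricle-like replicate 1 and 0 to 0.226 times in the other HO libraries. Msln was 0.00751 to 0.0892 times Upk1b in the embryonic libraries and 0.659 to 7.84 times in HOs. Upk3b was 3.17 to 5.46 times Upk1b in the embryonic libraries, 1.74 to 3.46 times in atrium-like and 0.137 to 1.17 times in ventricle-like parts. Tcf21 was 8.41 to 12.9 times Wt1 in the embryonic libraries, a range that lay inside that of HOs, 1.39 to 112.7 times. Of these 4 ratios the ranges of all embryonic and all HO libraries overlapped for Upk3b over Upk1b and Tcf21 over Wt1, and did not for the other 2.

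Genes of other epithelia were also measured in these libraries, and they are given beside the uroplakin and Msln values. Of 8 urothelial genes, 6 were tested against each chamber. Of those, 5 were called higher in atrium-like parts relative to atria and 3 in ventricle-like parts relative to ventricles. Of all genes tested, 16.0% and 11.6% were called higher in these comparisons. Only 2 of the 8 passed the filter on low counts in the fit of embryonic chambers alone. Genes that passed only through the HO libraries could hardly be called lower, so these counts are a description only. The summed level of the 8 was 10.3 to 16.1 CPM in atria and 13.6 to 20.9 CPM in ventricles. In HOs it was 64.1 to 409 CPM in atrium-like and 13.7 to 341 CPM in ventricle-like parts. Upk2 had no fragment in any embryonic library. Upk1a, a tetraspanin uroplakin named here after its values were seen, had 98.0, 17.5 and 14.0 FPKM in atrium-like and 36.8, 2.25 and 56.3 FPKM in ventricle-like parts, and at most 0.238 FPKM in E11.5H. As for Upk1b and Msln, ventricle-like replicate 2 was its lowest HO library. Krt5, a keratin of basal epithelial cells also named after its values were seen, had 51.0 FPKM in ventricle-like replicate 1, 25.6 FPKM in ventricle-like replicate 3 and 0.0736 to 3.85 FPKM in the other 4 HO libraries, and at most 0.0141 FPKM in E11.5H. Its highest library was the same as that of Upk3b and Upk1b, whereas no other gene of the urothelial list was highest there. The mean log2 CPM of that list was 3.61, 1.78 and 3.76 in atrium-like replicates 1 to 3. In ventricle-like replicates 1 to 3 it was 3.21, 0.78 and 4.91.

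Of 12 gut epithelial genes all 12 were called higher in atrium-like parts relative to atria. Against ventricles 11 were tested, and 9 were called higher in ventricle-like parts. Of all genes tested, 16.0% and 11.6% were called higher in these comparisons. Only 6 of the 12 passed the filter on low counts in the fit of embryonic chambers alone. Genes that passed only through the HO libraries could hardly be called lower, so these counts are a description only. The mean log2 CPM of the 12 was 8.07, 6.83 and 8.22 in atrium-like replicates 1 to 3. In ventricle-like replicates 1 to 3 it was 5.50, 3.20 and 7.75, against 0.72 to 0.99 in E11.5H. Of 12 hepatocyte and visceral endoderm genes all 12 were called higher in atrium-like parts, and 6 of the 8 tested in ventricle-like parts. Only 7 of the 12 passed the filter in the fit of embryonic chambers alone, so the same limit holds for these counts. The mean log2 CPM of the 12 was 9.47, 5.25 and 8.81 in atrium-like and 3.96, 1.60 and 8.45 in ventricle-like replicates 1 to 3. Krt8 and Krt18 of the gut list were also present in E11.5H, at means of 21.8 and 31.45 FPKM in atria and 22.8 and 24.3 FPKM in ventricles. The other genes of that list had means of at most 1.07 FPKM in either chamber. Ventricle-like replicate 2 was the lowest HO library for both of these lists, as for Upk3b, Upk1b and Msln. Ventricle-like replicate 1 was the second lowest for both lists, the highest for Upk3b and Upk1b and the third highest for Msln. The part of these epithelia in the levels of Upk3b, Upk1b and Msln was not tested.

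Of the markers of heart muscle, 16 pan-cardiomyocyte genes had a mean log2 CPM of 9.78 to 10.35 in E11.5H and of 4.995 to 8.61 in HOs, with 7.65 in ventricle-like replicate 1. Of these, 15 were called lower in atrium-like parts and 13 lower in ventricle-like parts than in the matching chamber. Of all genes tested, 8.81% and 7.35% were called lower in these comparisons. The 10 genes listed for epicardium-derived mesenchyme, such as Pdgfra and Postn, had a mean log2 CPM of 6.26 to 6.71 in E11.5H and of 5.63 to 8.18 in HOs. Ventricle-like replicate 1 had 7.61. Atrium-like replicate 2 (8.18) and ventricle-like replicate 2 (7.73), both without a fragment of Lrrn4, were higher.

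Genes with a pattern most like the mean of the 6 were sought by Pearson correlation with the mean of their scaled log2 CPM, as a description. The 6 genes differed in their own correlation with this mean. Over the 6 HO libraries it was 0.47 for Tcf21, the lowest, and 0.88 for Upk3b, the highest. Over all 12 libraries it was −0.13 for Msln and 0.74 to 0.92 for the others. Over the 6 HO libraries, which differ together in many genes, 27 of 14754 genes reached a correlation of 0.9, led by Nudt22 (0.984), Smoc2 (0.969) and Prss22 (0.969). Prss22 had 40.5 FPKM in ventricle-like replicate 1 and 0.162 to 6.41 FPKM in the other 5. Over all 12 libraries 4 of 14615 genes did, Rubcnl (0.956), Myrf (0.914), Stk26 (0.913) and Zadh2 (0.903). Myrf had 13.5 to 16.8 FPKM in atria, 8.63 to 10.7 FPKM in ventricles, 3.56 to 4.83 FPKM in atrium-like parts and 7.65, 1.84 and 3.49 FPKM in ventricle-like replicates 1 to 3. Both genes were thus highest among HO libraries in ventricle-like replicate 1, the library that weighs most in the mean.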

How the data were processed

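RNA of the chambers of E11.5H and of the atrium-like and the ventricle-like part of HOs was sequenced in 3 libraries per group. The authors mapped the reads with STAR to GRCm38/mm10 and deposited, per gene, expected counts (fragments without normalization, of which 23.8% were not whole) and FPKM. FPKM as deposited by the authors is scaled by transcript length and library total only, so that large changes in other genes move it. The version of STAR, the counting tool, the annotation release and the use of strand were not given in the sources used here. Libraries were grouped by their labels, and all 12 were used, with 23971258 to 30540993 fragments each. A count of 0 allows up to 0.0982 to 0.125 CPM. Replicates differed beyond sampling noise in every group.

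Counts rounded to whole numbers were tested over all genes by the quasi-likelihood test of edgeR 4.0.16 (R 4.3.3) after TMM scaling and filterByExpr at a minimum count of 10, with only the groups compared in each fit and all 12 libraries for the interaction. Alternatives used DESeq2 1.42.0 and limma 3.58.1, other scalings and filters, the replicate number as a block, and each library left out. The tests were also run on simulated data. CPM uses library totals, and 0.5 was added before log2. The 6 genes, all lists and the focus on ventricle-like replicate 1 were chosen with earlier results of these data known. The text names the 6 genes, list genes called in a comparison or with most of their summed HO signal in 1 library, and the genes most like the mean of the 6. Tbx18 in the embryonic comparison, Wt1os, Upk1a, Krt5, Osr1 and Amhr2 were added.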

Additional observations from a re-analysis of the deposited data

How the results depend on the processing

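The 6 genes gave 465 values of log2 fold change under alternatives, of which 389 kept direction and side of the threshold, 33 lost and 10 gained a call in the same direction, and 33 changed direction. The cause of these changes was not tested. Of the 6 genes, 2 were called between embryonic chambers, and 0 with all 12 libraries in 1 fit, 5 with scaling to pan-cardiomyocyte genes and 1 to 2 with each library left out. In atrium-like parts against atria 6 were called, and 2 in the fit of all 12 libraries, 3 with pan-cardiomyocyte scaling and 2 to 6 with each library left out. In ventricle-like parts against ventricles 1 was called, and 2 with DESeq2, 0 with limma at either pseudocount (1 or 0.1), 3 with pan-cardiomyocyte scaling and 0 to 3 with each library left out. Between the HO parts and in the interaction the count was 0 in every alternative run. For the interaction all 12 libraries are in the fit already, so that alternative was not run separately.

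Whether replicate numbers pair the samples is unknown, and the labels do not say. Same-numbered libraries deviated together with correlations of −0.028, −0.0060 and 0.0086 in E11.5H and −0.0014, 0.61 and 0.36 in HOs, the last 2 being the best match of those atrium-like libraries, whereas replicate 1 of both parts and ventricle-like replicate 3 correlated best with another number. The fits without the block were kept. With the replicate block 1 gene was called between embryonic chambers, 5 in atrium-like parts against atria, 1 in ventricle-like parts against ventricles and 0 elsewhere. With it, Upk3b (0.79) and Msln (0.29) reversed between the HO parts, and Wt1 (−0.75) and Upk1b (−0.086) in ventricle-like parts against ventricles.

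Between the HO parts, Upk3b reversed with limma at 1 (0.27) and 0.1 (0.93), with pan-cardiomyocyte scaling (1.39) and without ventricle-like replicate 1, where it had the top of its range of −1.15 to 0.58. Msln reversed with limma at 0.1 (0.11), with that scaling (1.80) and without ventricle-like replicate 3 (range −1.48 to 0.41). Scaling to pan-cardiomyocyte genes moved the median of all genes to 0.52 between embryonic chambers, 1.51 between HO parts, 3.82 in atrium-like parts, 2.84 in ventricle-like parts and 0.99 in the interaction. Under it Wt1 (0.93), Tcf21 (2.39), Upk3b (0.88) and Upk1b (1.17) reversed in atrium-like parts, Tcf21 (1.08), Upk3b (0.76) and Lrrn4 (1.62) in ventricle-like parts, and Upk3b (0.12) and Msln (0.53) in the interaction. With limma, Wt1 (−0.17 at 1, −0.45 at 0.1) and Upk1b (−0.15 and −0.38) reversed in ventricle-like parts, and Upk3b (0.11 at 0.1) in the interaction. With each library left out, Wt1 ranged from −1.90 to 1.17 in ventricle-like parts, and in the interaction Tcf21 from −0.50 to 1.38 and Lrrn4 from −9.76 to 1.66.

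Over all genes, 712 were called between embryonic chambers, and 386 with limma at 1, 55 with all 12 libraries and 1642 with pan-cardiomyocyte scaling. Between HO parts these were 0, and 59 with DESeq2 and 1344 with that scaling. That scaling gave 14130 calls in atrium-like and 13561 in ventricle-like parts against 3821 and 2859, and leaving out 1 library gave 1662 to 5495 and 1116 to 3725. In the interaction 25 became 455 with DESeq2, 89 and 45 with limma, 11 with that scaling, 5 with the replicate block and 2 to 216 with each library left out. Depth was similar in all libraries. The biological coefficient of variation was 0.677 between HO libraries and 0.211 in E11.5H.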
